A study of Mus musculus with 18 samples.

Results

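Neuron and astrocyte fractions from the brains of knock-in (KIN) mice were compared by small RNA sequencing, with 3 libraries in each group. The mice were aged 10 months, on a C57BL/6 background and homozygous for Atxn2-CAG100-KIN, an expanded CAG repeat placed in the mouse Atxn2 gene that models spinocerebellar ataxia type 2. Every library of the comparison therefore carried the expansion, and neither group had received any treatment. According to the methods of the study, the fractions were taken one after another from a single dissociated brain, with CD11b beads removing microglia first and ACSA-2 beads then retaining astrocytes. Neurons were not selected by a marker of their own. They were the cells left in the flow-through after a cocktail of antibodies and CD31 beads had bound other cells. A feature of the count table reached the comparison, as a member, when 2 or more of these 6 libraries held 5 counts of it or more, and 5001 of 203513 did. Features are of 4 kinds, namely Ensembl transcripts, copies of tRNA genes, mature miRNAs and piRNAs. Of the members, 781 passed through the neuron libraries alone and 609 through the astrocyte libraries alone.

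The neuron libraries held between 2343693 and 2427384 counts and the astrocyte libraries between 3438701 and 3721337, and the members took from 98.3% to 99.3% of them. The unit of a level is CPM, the number of counts that a library of standard size would give after TMM scaling, and fold changes are written as log2 of neurons over astrocytes with the standard error (SE) of the fit. A feature was called when the adjusted p of edgeR's quasi-likelihood test (Benjamini-Hochberg) was at most 0.05 and the absolute log2 fold change at least 1. The study states that equal amounts of RNA entered cDNA preparation, but does not say so for the small RNA libraries. It obtained far fewer cells and less RNA from the neuron fraction than from the glial ones. Every value is a relative amount within a library, and the part of RNA input in the differences was not tested. In such bulk fractions, fewer cells of a type and less RNA per cell cannot be told apart. Transcripts of Atxn2 gave only 13 counts over the 3 neuron libraries and 13 over the 3 astrocyte libraries.

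Small RNAs of a brain cell differ in origin and fate. A mature miRNA is cut from a hairpin and guides silencing proteins to messages that pair with its seed, the bases 2 to 8. Transfer RNAs carry amino acids to the ribosome, and mitochondria make a set of their own from the mitochondrial genome. Small nucleolar RNAs (snoRNAs) guide the modification of ribosomal RNA, scaRNAs do so for spliceosomal RNA, and small nuclear RNAs (snRNAs) form the spliceosome itself. In the brain, mmu-miR-124-3p and mmu-miR-128-3p are known as neuronal, mmu-miR-219a-5p and mmu-miR-338-3p as oligodendrocytic, mmu-miR-142a-3p as a miRNA of blood cells and microglia, and mmu-miR-9-5p as a miRNA of the neural lineage.

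The sequences below belong to the mature miRNAs on which the comparison turns, with the seed in capitals. They were copied from the descriptions in the deposited table, and their positions were found in GRCm39. The first 4 were the most increased in neurons among the abundant ones, the next 6 the most decreased, and the last 4 are miRNAs whose cell type or shared seed is referred to later.
mmu-miR-142a-5p (Mir142, chr11:87647693-87647713, + strand): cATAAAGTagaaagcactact
mmu-miR-142a-3p (Mir142, chr11:87647729-87647751, + strand): tGTAGTGTttcctactttatgga
mmu-miR-146a-5p (Mir146, chr11:43265262-43265283, - strand): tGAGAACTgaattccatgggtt
mmu-miR-150-5p (Mir150, chr7:44771186-44771207, + strand): tCTCCCAAcccttgtaccagtg
mmu-miR-338-3p (Mir338, chr11:119905607-119905628, - strand): tCCAGCATcagtgattttgttg
mmu-miR-219a-5p (Mir219a-1, chr17:34244026-34244046, - strand): tGATTGTCcaaacgcaattct
mmu-miR-190a-5p (Mir190a, chr9:67143982-67144003, - strand): tGATATGTttgatatattaggt
mmu-miR-34b-5p (Mir34b, chr9:51014910-51014932, - strand): aGGCAGTGtaattagctgattgt
mmu-miR-338-5p (Mir338, chr11:119905642-119905663, - strand): aACAATATcctggtgctgagtg
mmu-miR-34c-5p (Mir34c, chr9:51014376-51014398, - strand): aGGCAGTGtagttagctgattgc
mmu-miR-124-3p (Mir124a-1, chr14:64828158-64828177, + strand): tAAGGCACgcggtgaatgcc
mmu-miR-9-5p (Mir9-1, chr3:88122920-88122942, + strand): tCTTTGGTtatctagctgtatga
mmu-miR-204-5p (Mir204, chr19:22727974-22727995, + strand): tTCCCTTTgtcatcctatgcct
mmu-miR-211-5p (Mir211, chr7:63855579-63855600, + strand): tTCCCTTTgtcatcctttgcct
The genes of mmu-miR-34b-5p and mmu-miR-34c-5p lie side by side on chromosome 9 and their products share the seed GGCAGTG, whereas mmu-miR-204-5p and mmu-miR-211-5p share TCCCTTT from different chromosomes. The sequences of mmu-miR-219a-5p, mmu-miR-124-3p and mmu-miR-9-5p occur in further hairpin genes, and a single position is given for each.

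The labels of both fractions were set against lists of genes and miRNAs typical of brain cell types. A gene that reached the filter through a single fraction had to differ, so counts over the tested genes of a list are a description, and the sums over the whole list are the firmer values. The astrocyte fraction held the messages of its label. Of 15 astrocyte genes tested with transcripts summed per gene, 14 were lower in neurons and 0 were higher, in a fit in which 41.7% of all genes were called. The list summed to between 23.5 and 41.2 CPM of the library total in neurons against 175 to 235 CPM in astrocytes. Gfap, the intermediate filament of astrocytes, had no count in any neuron library and 5.59, 3.69 and 3.47 CPM in astrocytes, which is at least 10.3-fold lower in neurons over the summed counts. Under the miRNA scaling described below, 7 of the 15 astrocyte genes were lower and 2 higher. Aqp4, the water channel of astrocyte endfeet, had 0.372, 0.00 and 0.320 CPM in neurons against 12.2, 10.7 and 12.3 CPM in astrocytes.

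The neuron fraction held the messages of its label in part. Of 14 neuron genes, 5 reached the filter and 3 were higher in neurons, and the list summed to 27.6 to 61.0 CPM there against 12.5 to 14.2 CPM in astrocytes. Stmn2, a microtubule regulator of growing neurites, stood at 7.08, 5.72 and 7.37 CPM in neurons and had no count in astrocytes. Tubb3, the tubulin of the neuronal lineage, gave 27 counts over the neuron libraries and 1 over the astrocyte libraries. Defining markers of mature neurons gave few counts in either fraction. Rbfox3, which encodes the nuclear protein NeuN, had 0 counts in neurons and 2 in astrocytes, Slc17a7, a vesicular glutamate transporter, had 2 and 1, and Nefl, a neurofilament, had 1 and 2. Map2, of dendrites, differed by a log2 of 0.40 ± 0.38 (adjusted p 0.4185), with groups that overlapped.

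The neuronal miRNAs were not higher in the neuron fraction. Of 15 listed, 12 were tested, 11 were lower in the neuron fraction and 0 were higher, beside 24.1% of all members called lower and 330 of all 397 mature miRNAs. Their median log2 was −4.00 and that of all mature miRNAs −3.43, so that they are not set apart from their class by these counts. Their sum was 239, 115 and 147 CPM of the library total in neurons against 2426, 2123 and 1293 CPM in astrocytes. In KIN microglia, by contrast, it lay between 65.8 and 79.2 CPM. The count of lower members was 9 with library totals and 10 with DESeq2, but against the pool of mature miRNAs alone 6 were lower and 3 were higher. The study, from RT-qPCR and marker transcripts of its RNA-seq, described its neuron populations as mostly pure. The message counts here come from short fragments, and the identity of the cells was not tested. The group is therefore called the neuron fraction, after its label, and nothing is claimed about its maturity.

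Other cell types were represented as well. The 5 erythroid genes summed to 19.0 to 47.8 CPM in the neuron fraction against 0.269 to 0.582 CPM, and the 4 that were tested passed the filter through the neuron libraries alone, although the methods describe removal of red cells. The 8 choroid plexus and ependymal genes summed to 373 to 594 CPM against 13.4 to 39.8 CPM, nearly all of it from Ttr, and the 4 choroid plexus genes among them were higher. The other 4, which mark ciliated ependymal cells, had too few counts to be tested, with 7 counts of Foxj1 in neurons and 7 in astrocytes, 1 and 10 of Ccdc153, 0 and 10 of Tmem212, and 1 and 5 of Enkur. Microglia genes were near 0 in both, at 1.24 to 3.41 CPM in neurons and 1.34 to 1.75 CPM in astrocytes, where KIN microglia held 74.3 to 108 CPM, and Tmem119, a defining marker, had 0 counts in all 6 libraries. Oligodendrocyte genes were low in both fractions, at 7.83 to 10.2 CPM in neurons and 20.3 to 26.3 CPM in astrocytes, and 4 of 5 tested were lower in neurons, whereas 2 of 5 were higher under the miRNA scaling. Endothelial genes, of which 3 were tested and 0 called, summed to 26.4 to 83.3 CPM in neurons and 17.0 to 57.0 CPM in astrocytes, most of it from Pecam1, and the more specific Cldn5 had a single count in the 6 libraries. Mural cell genes reached at most 5.53 CPM in any library. The part of these cells in the results below was not tested.

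Of the 5001 members, 2314 (46.3%) were called, 1111 of them higher in the neuron fraction (22.2%) and 1203 lower (24.1%). The 3 neuron libraries lay wholly above or below the 3 astrocyte libraries for 2997 members (59.9%). The direction depended strongly on the class of RNA. Most calls among protein-coding transcripts were higher, with 555 of 1608 higher, 139 lower and 914 not called. Mature miRNAs, miRNA hairpins, tRNAs and mitochondrial tRNAs were mostly lower. The choice of scaling mattered for these directions. When the TMM factors were computed from mature miRNAs alone, the median log2 of all members moved from 0.06 to 3.17, and 4086 members (81.7%) were called higher, so that the share of calls that were higher moved from 48.0% to 95.3%. With library totals that share was 55.6%. Directions given below are relative to the whole library, and those that turn under the miRNA scaling are named.

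The make-up of the libraries showed the same division. Mature miRNAs took 2.13%, 1.33% and 1.60% of the counts in neurons and 10.3%, 9.13% and 8.43% in astrocytes, and the groups did not overlap. Transfer RNAs took 5.16% ± 0.68 in neurons against 12.1% ± 0.28 in astrocytes (SD, n = 3), and mitochondrial tRNAs 0.673% ± 0.061 against 5.47% ± 0.43. The snoRNAs were the largest class in both, at 28.9% ± 1.2 in neurons and 21.0% ± 0.56 in astrocytes. In 15 of 20 classes the groups did not overlap, 9 higher and 6 lower in neurons, and each of these gave an exact two-sided permutation p of 0.1, the smallest that 3 against 3 libraries allow (adjusted p 0.1333 over the 20 classes). The mitochondrial rRNAs differed little, with 0.561% ± 0.039 in neurons and 0.555% ± 0.033 in astrocytes.

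**Figure D1:**
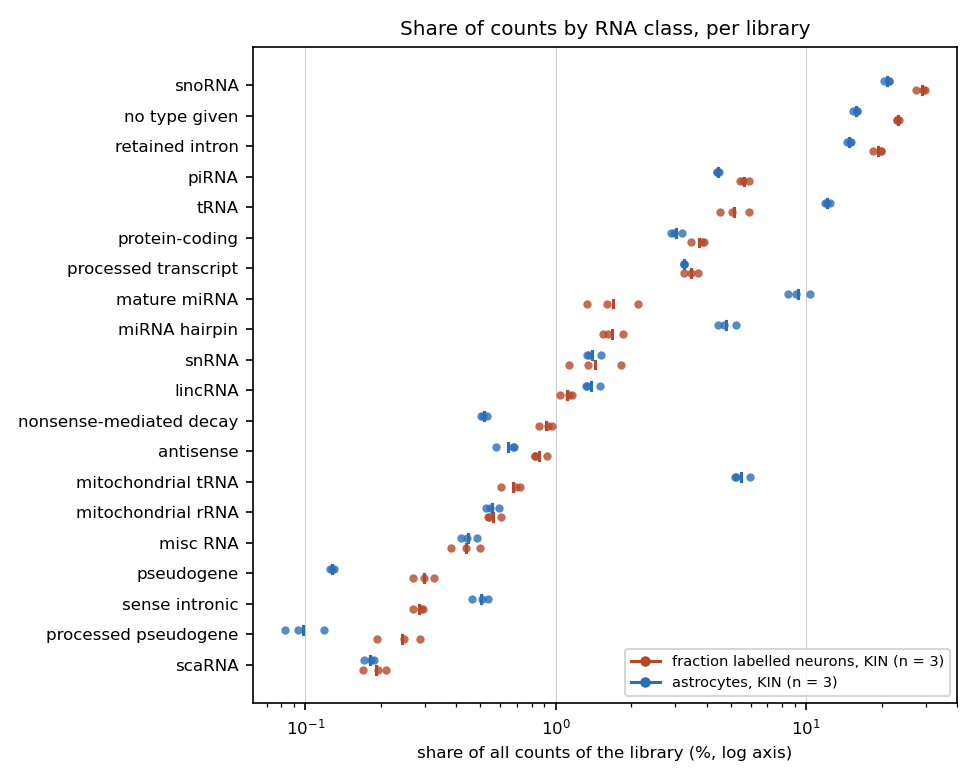
Share of all counts of a library (percent, log axis) for each RNA class, with 1 point per library and a tick at the mean of 3 libraries. Mature miRNAs, tRNAs, miRNA hairpins and mitochondrial tRNAs lie lower in the fraction labelled neurons, while snoRNAs, retained introns and transcripts without a type lie higher.

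Mature miRNAs had the lowest median of all classes. Of 397 tested, 330 were lower in the neuron fraction and 15 were higher, with a median log2 of −3.43. The median was −0.37 under the miRNA scaling, and 92 were higher and 106 lower. A first statement is thus about the class, which made up a smaller part of the neuron libraries, and a second about its composition, which differed between fractions under either scaling.

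The miRNAs of oligodendrocytes set the lower end. The level of mmu-miR-338-3p was 1.12, 0.834 and 0.722 CPM in neurons, 7 counts in all, and 1548, 957 and 1102 CPM in astrocytes. The log2 was −10.33 ± 0.34 (adjusted p 7.748e-26), and with so few neuron counts the size of the fold is uncertain. Next, mmu-miR-219a-5p, which is required for oligodendrocyte differentiation, stood at 4.85, 1.67 and 0.722 CPM against 3035, 2157 and 2501 CPM, a log2 of −10.02 ± 0.33 (adjusted p 7.748e-26). All 5 oligodendrocyte miRNAs were lower in neurons under each of the 4 scalings, and their sum was 7.00 to 12.0 CPM of the library total in neurons, 3563 to 5387 CPM in astrocytes and 32.7 to 48.9 CPM in KIN microglia. The astrocyte fraction thus held these miRNAs at high levels while its sum of oligodendrocyte genes was 20.3 to 26.3 CPM. Whether oligodendrocytes in that fraction carried them was not tested. The reads of mmu-miR-338-3p and mmu-miR-219a-5p also match, as reverse complements over 21 bases, mmu-miR-3065-5p and mmu-miR-219b-3p, which counting without strand does not separate.

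The miR-34 family, known for its role in ciliated epithelia and as a target of p53, had the most negative median of the seed families. Its 3 members with the seed GGCAGTG were lower in neurons, with a median log2 of −7.98 and of −4.88 under the miRNA scaling. The level of mmu-miR-34c-5p was 10.1, 5.42 and 6.86 CPM in neurons and 1788, 2078 and 1837 CPM in astrocytes, a log2 of −7.98 ± 0.26 (adjusted p 7.748e-26). Its neighbour mmu-miR-34b-5p stood at 1.12, 0.417 and 2.17 CPM, 10 counts in all, against 539, 509 and 484 CPM. Ependymal genes that mark cilia had few counts in both fractions, and 3 of the 4 listed had more counts in astrocytes, as given above. The part of such cells in this difference was not tested.

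Further miRNAs had strong differences. The level of mmu-miR-190a-5p, which is on none of the lists and is encoded in an intron of Tln2, was 0.373, 0.417 and 0.361 CPM in neurons, 3 counts in all, and 306, 198 and 204 CPM in astrocytes, a ratio of the summed counts, corrected for depth, of 620 with a 95% counting interval from 212 to 3008. Of the neuronal list, mmu-miR-124-3p stood at 142, 74.2 and 77.3 CPM in neurons and 1549, 1453 and 729 CPM in astrocytes, a log2 of −3.67 ± 0.25 (adjusted p 8.427e-16). Its fellow mmu-miR-138-5p was at 2.61, 3.34 and 5.42 CPM against 208, 200 and 181 CPM. For all 3 of these miRNAs the groups were far apart. The endothelial mmu-miR-126a-3p and the mural mmu-miR-145a-5p were lower too, with a log2 of −4.29 ± 0.34 and −3.78 ± 0.33. By list, 7 of 8 astrocyte and neural lineage miRNAs were lower, as were 2 of 2 endothelial, 3 of 3 mural and 1 of 3 erythroid miRNAs, and of 6 epithelial and ciliated cell miRNAs 3 were lower and 2 higher. Under the miRNA scaling 2 of the lineage miRNAs were lower and 2 higher, 1 mural and 3 erythroid miRNAs were higher, and of the epithelial and ciliated ones 2 were lower and 4 higher.

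Most of the myeloid miRNAs tested ran the other way. Of 5 myeloid miRNAs tested, 4 were higher in the neuron fraction and 0 lower, beside 22.2% of all members called higher, and 4 were higher with library totals and with DESeq2 and 5 under the miRNA scaling. The level of mmu-miR-142a-5p was 69.3, 57.1 and 24.2 CPM in neurons and 1.49, 5.22 and 1.16 CPM in astrocytes, a log2 of 4.27 ± 0.43 (adjusted p 3.391e-11). From the same hairpin, mmu-miR-142a-3p stood at 259, 256 and 125 CPM against 25.3, 46.4 and 22.0 CPM, a log2 of 2.78 ± 0.28 (adjusted p 2.549e-11). In both, every neuron library lay above every astrocyte library.

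The inflammation-responsive mmu-miR-146a-5p followed, with 128, 166 and 107 CPM in neurons and 26.2, 31.0 and 20.6 CPM in astrocytes (log2 2.36 ± 0.25, adjusted p 1.721e-10). The level of mmu-miR-155-5p was 25.7, 45.9 and 25.6 CPM against 7.15, 10.8 and 5.50 CPM (log2 2.05 ± 0.34, adjusted p 2.222e-06). Lymphocyte-rich mmu-miR-150-5p was at 333, 349 and 218 CPM against 134, 165 and 92.3 CPM (log2 1.20 ± 0.22, adjusted p 1.327e-05). The granulocyte miRNA mmu-miR-223-3p was not called, with 18 counts in neurons and 46 in astrocytes (adjusted p 0.08122).

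KIN microglia give a scale for these values. The myeloid list summed to 325 to 553 CPM of the library total in neurons, 49.2 to 84.2 CPM in astrocytes and 12410.0 to 19060.0 CPM in microglia. Within that list, mmu-miR-146a-5p averaged 144 CPM in neurons and 11750.0 CPM in microglia, and mmu-miR-142a-5p 54.5 and 208 CPM. For mmu-miR-150-5p the order was different, with 325 CPM in neurons, 119 CPM in astrocytes and 147 CPM in microglia. Microglia genes were near 0 in the neuron fraction, as given above. The erythroid mmu-miR-451a, in spite of the haemoglobin messages, was at 61.1, 38.8 and 38.6 CPM in neurons and 24.4, 17.0 and 57.9 CPM in astrocytes, and was not called (adjusted p 0.2068).

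**Figure D2:**
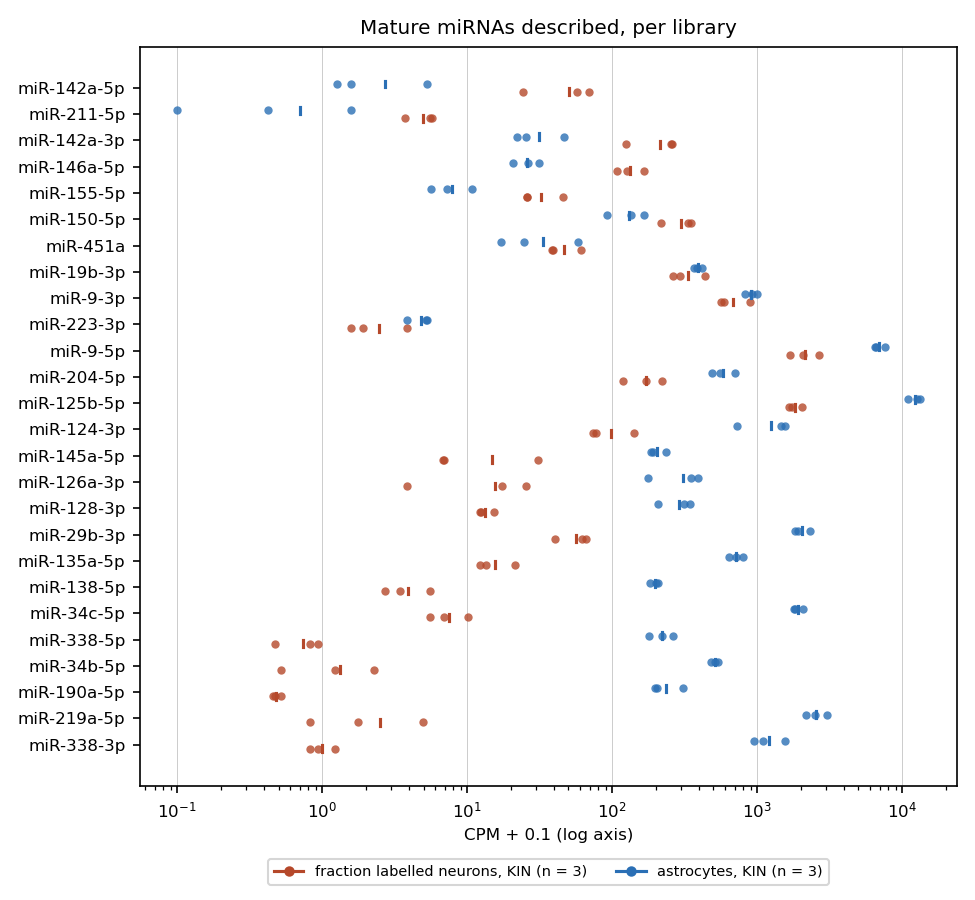
Levels of the mature miRNAs described in the text (CPM + 0.1, log axis), with 1 point per library and a tick at the mean of 3 libraries, ordered by log2 fold change. At the bottom mmu-miR-338-3p lies at 0.722 to 1.12 CPM in the fraction labelled neurons and at 957 to 1548 CPM in astrocytes, and at the top mmu-miR-142a-5p lies the other way round.

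Within the pool of mature miRNAs, an abundant member could take an equal or an unequal share in neurons and astrocytes. The 10 most abundant took 58.0% of the mature counts in neurons and 46.5% in astrocytes. The share of mmu-miR-125b-5p was 12.0% ± 0.83 of the pool in neurons and 12.1% ± 0.22 in astrocytes (SD, n = 3). By contrast mmu-miR-9-5p took 14.3%, 12.6% and 14.8% of the pool in neurons and 6.16%, 7.11% and 7.32% in astrocytes. As CPM of the library its direction is the opposite, a log2 of −1.69 ± 0.18 by the main scaling and 1.42 by the miRNA scaling. Among others mmu-let-7c-5p (9.17% against 4.34%), mmu-miR-9-3p (4.41% against 0.901%) and mmu-miR-19b-3p (2.15% against 0.384%) had larger mean shares in neurons, and mmu-let-7a-5p (2.14% against 3.56%) and mmu-miR-26a-5p (2.06% against 4.84%) smaller ones.

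By seed family, the counts followed those of the class, in which 330 of 397 were lower. Among 16 families with at least 3 members, 9 of 9 members of the let-7 family, which restrains growth and stemness genes, were lower in neurons (median log2 −3.47), whereas under the miRNA scaling 2 were lower and 2 higher. All 6 members with the miR-30 seed GTAAACA were lower (median log2 −3.60), and none of the 6 was called under the miRNA scaling. The family with the seed AAAGTGC, products of the growth-promoting miR-17 clusters and their paralogs, stood apart, with 2 of 6 higher and 2 lower and a median log2 of −0.69, and with 6 of 6 higher under the miRNA scaling. The pair that shares TCCCTTT was split by direction. There mmu-miR-211-5p was at 5.59, 5.42 and 3.61 CPM in neurons against 1.49, 0.327 and 0.00 CPM (log2 2.91 ± 0.64, adjusted p 0.0001711), and mmu-miR-204-5p at 220, 172 and 118 CPM against 707, 488 and 551 CPM (log2 −1.78 ± 0.21, adjusted p 2.719e-09). Both are known from the choroid plexus and the retinal pigment epithelium, and under the miRNA scaling mmu-miR-204-5p was also higher, by a log2 of 1.33. Base composition did not follow these differences across the 397 miRNAs, which are not independent replicates, with a Pearson correlation of GC content and log2 of 0.00 and a Spearman correlation of −0.04.

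Mitochondrial tRNAs formed the most uniform class. All 22 were lower in the neuron fraction, with log2 between −4.06 and −2.52 and a median of −3.40. Under the miRNA scaling the median was −0.27 and 0 of 22 were called. The lysine tRNA mt-Tk-201 was at 189, 174 and 166 CPM in neurons and 2519, 2929 and 3391 CPM in astrocytes, a log2 of −4.06 ± 0.20 (adjusted p 2.07e-20). The most abundant, the serine tRNA mt-Ts2-201, was at 950, 961 and 937 CPM against 10320.0, 11920.0 and 12490.0 CPM. The groups were far apart for both.

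The sequences of mt-Tk-201 and of the cysteine tRNA mt-Tc-201, which had the largest differences, read as follows in GRCm39. The CCA end that is added after transcription is not part of them, and no base is marked.
mt-Tk-201 (chrM:7700-7764, + strand): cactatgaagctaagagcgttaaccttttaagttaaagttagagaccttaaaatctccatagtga
mt-Tc-201 (chrM:5192-5257, - strand): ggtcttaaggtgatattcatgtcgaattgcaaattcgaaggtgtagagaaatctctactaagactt
The level of mt-Tc-201 was 96.5, 85.1 and 72.6 CPM in neurons and 1097, 1312 and 1258 CPM in astrocytes (log2 −3.85 ± 0.20, adjusted p 2.86e-19). Other RNAs of the same genome did not share the size of this difference. The rRNA mt-Rnr1-201 was at 1525, 1831 and 1846 CPM in neurons and 1963, 2035 and 1922 CPM in astrocytes, a log2 of −0.19 ± 0.17 (adjusted p 0.3694), which turned to 0.06 with library totals. Of 13 mitochondrial protein genes, a group formed after the values had been seen, 2 were lower and 11 not called. One of the 2, mt-Co1-201, a subunit of cytochrome c oxidase, had a log2 of −2.60 ± 0.23. By the miRNA scaling 12 of the 13 were higher in neurons.

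Cytosolic tRNAs were lower in the neuron fraction, and unevenly so. With gene copies summed into 174 isodecoders, the tRNAs of 1 sequence, 124 were lower and 2 higher, in a fit in which 44.7% of features were called, and the median log2 was −1.71. Under the miRNA scaling that median turned to 1.52. By amino acid, arginine tRNAs were the lowest of the groups with more than 5 isodecoders, with 18 of 19 lower and a median log2 of −2.49. Glutamine tRNAs followed with 8 of 9 lower and a median of −2.12, and then threonine and serine tRNAs with 12 of 13 lower in each. Leucine tRNAs had 4 of 16 lower and a median of −0.65, and glycine tRNAs 2 of 10 and a median of −0.34. Under the miRNA scaling the medians were 0.79 for arginine, 2.64 for leucine and 2.95 for glycine. That scaling moves all features by nearly the same amount, so the kept order of the groups is no separate evidence.

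Among isodecoders with a mean of at least 50 CPM in the higher group, the largest difference was that of tRNA-Cys-GCA-2, at 40.6, 29.4 and 29.3 CPM in neurons and 447, 434 and 418 CPM in astrocytes (log2 −3.71 ± 0.21, adjusted p 3.844e-11). The isodecoder tRNA-Ile-AAT-4 followed with 10.8, 6.40 and 6.41 CPM against 68.2, 83.4 and 75.8 CPM (log2 −3.26 ± 0.30, adjusted p 3.977e-08). Against the trend, tRNA-Ala-AGC-8 was at 60.4, 45.2 and 54.3 CPM in neurons and 10.4, 14.0 and 11.7 CPM in astrocytes (log2 2.14 ± 0.28, adjusted p 4.12e-06). Among single gene copies tRNA-Gly-GCC-3-1 was also higher, at 415, 559 and 580 CPM against 208, 301 and 230 CPM (log2 1.07 ± 0.20, adjusted p 1.371e-05). Copies share reads, so a copy taken alone is uncertain.

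**Figure D3:**
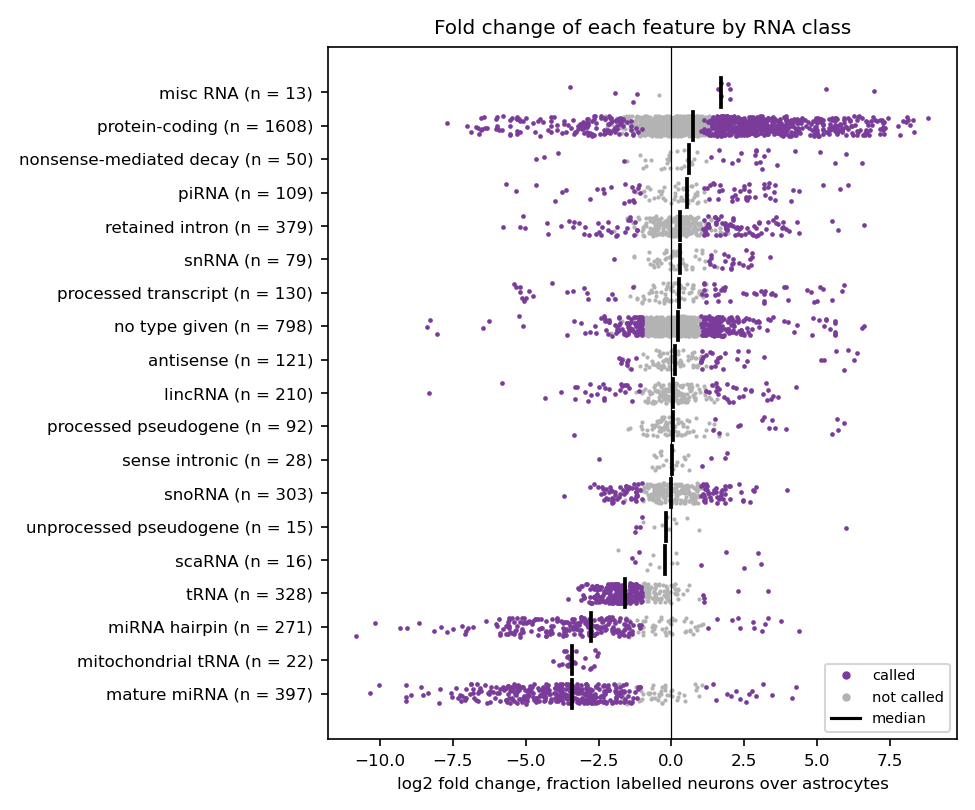
Log2 fold change of neurons over astrocytes in KIN for each member, by RNA class, with called members in purple and a bar at the class median. The medians of mature miRNAs, mitochondrial tRNAs, hairpins and tRNAs lie between −3.43 and −1.58 and that of protein-coding transcripts at 0.73.

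The snoRNAs, of which 49 of 303 were higher and 52 lower, had a median log2 of −0.01. Their structural kinds were assigned by sequence, with TGATGA in the first 20 bases and CTGA in the last 15 for C/D box snoRNAs, and ACA followed by 3 bases at the end for H/ACA box snoRNAs, all on the transcribed strand. Of the snoRNA members 35.3% held both C and D motifs and 34.3% the ACA motif, as against 0.369% and 1.11% of the 271 miRNA hairpins, so that many snoRNAs of either kind could not be assigned by these letters. Among 103 with C and D motifs 18 were higher and 8 lower, with a median log2 of 0.26. Among 100 with the ACA motif 9 were higher and 31 lower, with a median of −0.52. Under the miRNA scaling both medians were positive, at 3.38 and 2.58. The difference between the kinds was not tested. In 8 of the 35 members named Snora the level was lower in neurons and in 1 higher, and 10 of the 76 named Snord were higher and 6 lower. Called in either direction were 25.7% of the Snora and 21.1% of the Snord members. The shares were 25.2% with C and D motifs and 40.0% with ACA, beside 46.3% of all members. Over all members 22.2% were called higher and 24.1% lower.

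Some of the snoRNAs with the largest differences among those with a mean of at least 50 CPM in the higher group, and a snoRNA of the imprinted cluster on chromosome 7, read as follows in GRCm39, with the C, D or ACA motif in capitals where it was found. They are shown so that the kinds can be compared.
Gm22806-201 (chr13:51802235-51802370, + strand): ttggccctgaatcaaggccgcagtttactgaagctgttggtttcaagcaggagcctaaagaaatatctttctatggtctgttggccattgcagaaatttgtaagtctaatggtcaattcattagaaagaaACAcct
Gm24916-201 (chr14:30737105-30737183, - strand): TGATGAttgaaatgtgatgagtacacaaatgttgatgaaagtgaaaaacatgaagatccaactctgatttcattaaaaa
Gm26225-201 (chr14:64991367-64991501, + strand): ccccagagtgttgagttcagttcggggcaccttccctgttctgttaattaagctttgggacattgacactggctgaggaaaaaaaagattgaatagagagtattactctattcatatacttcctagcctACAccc
ENSMUST00000239804 (Gm25615, chr7:59513988-59514081, - strand): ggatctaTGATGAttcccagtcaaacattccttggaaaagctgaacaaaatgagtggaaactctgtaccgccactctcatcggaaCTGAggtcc
The level of Gm22806-201 was 110, 85.5 and 50.2 CPM in neurons and 5.06, 6.20 and 4.34 CPM in astrocytes (log2 3.97 ± 0.33, adjusted p 1.972e-13). That of Gm24916-201 was 627, 748 and 754 CPM against 92.9, 105 and 100 CPM (log2 2.84 ± 0.20, adjusted p 1.249e-15), and its counts were the same as those of Gnl3-213, a transcript that contains it. Lower in neurons were Snora47-201, with 70.1, 56.7 and 30.3 CPM against 313, 339 and 430 CPM (log2 −2.78 ± 0.24), and Gm26225-201, with 14.2, 5.42 and 6.14 CPM against 53.0, 55.8 and 53.3 CPM (log2 −2.64 ± 0.32). Both turned to positive values, of 0.29 and 0.42, under the miRNA scaling.

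On chromosome 7 the imprinted domain of Snord115 and Snord116, whose loss in humans belongs to Prader-Willi syndrome and whose snoRNAs are known to be made mainly in neurons, was split by the length of the snoRNA. These groups were formed after their values had been seen. All 68 snoRNAs of 94 bases were higher in the neuron fraction, with log2 between 1.27 and 3.47, under each of the 4 scalings. The largest belonged to the feature ENSMUST00000239804 printed above, at 177, 201 and 248 CPM against 15.5, 23.8 and 17.1 CPM. Together they summed to 6600.0, 5127 and 6322 CPM of the library total in neurons, 1711, 1501 and 1890.0 CPM in astrocytes and 17.8 to 42.9 CPM in KIN microglia. Of the 116 snoRNAs of 79 bases, 36 were lower and 0 higher, with a median log2 of −0.84 that became 2.26 under the miRNA scaling. Their sums overlapped, with 1258, 854 and 1526 CPM in neurons and 1795, 1454 and 2376 CPM in astrocytes. The copies within each length are nearly identical and divide a shared pool of reads, so the sums are the firmer values. The single Snord64-201 of the same domain was at 185, 141 and 166 CPM against 577, 706 and 612 CPM (log2 −1.95 ± 0.19, adjusted p 2.923e-11), and at 1.19 on the log2 scale with the miRNA scaling.

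Among spliceosomal and other structured RNAs most members were not called. Of 79 snRNAs 23 were higher and 1 lower. The U1 gene Rnu1b6-201 was at 115, 89.2 and 62.5 CPM in neurons and 15.8, 10.5 and 18.2 CPM in astrocytes (log2 2.58 ± 0.29, adjusted p 4.819e-10). U1 genes share reads with each other and are uncertain one by one. Of 16 scaRNAs 5 were higher, led by Gm22009-201 with 121, 184 and 146 CPM against 23.2, 15.7 and 14.5 CPM (log2 3.07 ± 0.26, adjusted p 4.641e-13), and 3 were lower. Scarna17-201 was lower, at 80.9, 92.1 and 118 CPM against 185, 241 and 270 CPM, with a log2 of −1.26 ± 0.21 that became 1.90 under the miRNA scaling.

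The misc_RNA class held the RNA of the signal recognition particle, which docks ribosomes to the endoplasmic reticulum, and the Y RNAs, which bind Ro protein. The near-identical Rn7s1-201 and Rn7s2-201 were higher in neurons, the latter at 1139, 1330.0 and 894 CPM against 236, 319 and 272 CPM (log2 2.02 ± 0.19, adjusted p 9.258e-12). Rny1-201 was lower, at 991, 725 and 659 CPM against 3216, 3201 and 2701 CPM (log2 −1.94 ± 0.18, adjusted p 7.401e-12), and so was Rny3-201 (log2 −1.19 ± 0.18). For both Y RNAs the sign turned under the miRNA scaling, to 1.18 and 1.93. Fragments of 18S rRNA from Rn18s-rs5, the most abundant feature of both fractions, took 3.62%, 3.81% and 3.68% of the counts in neurons and 1.43%, 1.34% and 1.28% in astrocytes.

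Features annotated as piRNAs, which in the germ line silence transposons, were higher in 40 and lower in 21 of 109 cases. Their names do not establish that they are piRNAs, since the sequences of 11 lay within miRNA hairpins, 11 within rRNA and 10 within snoRNAs. A further 20 lay within longer transcripts, and 18 matched no annotated transcript, of which 12 were higher and 1 lower. The origin of those 18, mmu-piR-57926 and mmu-piR-67402 among them, was not tested. The sequences of the leading members are given from the deposited table, without capitals.
mmu-piR-57926: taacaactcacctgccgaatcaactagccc
mmu-piR-67402: gcgccgaaggagcctcggttggccc
mmu-piR-68767 (within Mir138-1): agctggtgttgtgaatcaggccgtt
The level of mmu-piR-57926 was 456, 806 and 695 CPM in neurons and 35.7, 36.9 and 35.02 CPM in astrocytes (log2 4.18 ± 0.23, adjusted p 1.117e-18). That of mmu-piR-67886 was 450, 703 and 499 CPM against 31.9, 35.6 and 28.4 CPM (log2 4.11 ± 0.23, adjusted p 1.681e-18). Lower in neurons was mmu-piR-68767, with 2.24, 2.92 and 3.97 CPM against 130, 127 and 118 CPM (log2 −5.34 ± 0.32), and mmu-miR-138-5p of the same hairpin had a log2 of −5.67 ± 0.30. The 11 within miRNA hairpins had a median log2 of −2.80 and the 11 within rRNA one of 1.41, with 0 of the latter lower.

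Long transcripts have to be read with the small RNAs they contain. A total of 244 small members lay within an exon of another member on the same strand. The 143 retained-intron members that contain a small RNA gene took between 87.4% and 91.4% of the counts of the 379 in that class. The most decreased of the abundant protein-coding transcripts were cases of this kind on the opposite strand. Glyctk-201 overlaps Mir135a-1 and had a log2 of −5.79 ± 0.28, next to −5.52 ± 0.25 for mmu-miR-135a-5p. Cd46-203 overlaps Mir29b-2 and Mir29c and had a log2 of −5.54 ± 0.22, next to −5.17 ± 0.22 for mmu-miR-29b-3p. Counting did not use the strand, so reads of the miRNA and of the transcript cannot be told apart. Likewise the long noncoding transcript 6720427I07Rik-201, at 217, 166 and 195 CPM against 2005, 2126 and 1611 CPM, contains 3 let-7 hairpins, and Gm48742-201 (log2 −3.32 ± 0.25) contains Mir100.

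Among other noncoding transcripts a pair of well-known RNAs were higher. Bc1-201, a cytoplasmic RNA of neuronal dendrites, was at 58.5, 49.6 and 43.3 CPM in neurons and 18.5, 20.9 and 18.0 CPM in astrocytes (log2 1.40 ± 0.27, adjusted p 3.303e-05). Neat1-201, the scaffold of paraspeckles, was at 37.3, 60.5 and 66.1 CPM against 16.4, 18.3 and 18.0 CPM (log2 1.64 ± 0.28, adjusted p 4.717e-06). The groups did not overlap for either.

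Of the 1527 protein-coding transcripts that contain no small RNA gene, 519 were higher in the neuron fraction and 128 lower. A small RNA kit captures short fragments of such transcripts rather than whole molecules. The groups described from here to the end of this paragraph were formed after their values had been seen, so their counts are a description. Replication-dependent histone genes, whose messages lack a poly(A) tail and are made in S phase, had a large difference. The table lists 67 histone cluster transcripts, of which 64 passed the filter, and these were higher in neurons under each of the 4 scalings, with a median log2 of 6.01. The 27 that had no count in astrocytes could pass only through the neuron libraries. With astrocyte sums of 9.67 to 13.7 CPM over the 64, few of the others could pass in another way. The filter thus largely set their direction, and the sum over all 67 is the firmer value. It was 846, 667 and 614 CPM in neurons, 14.3, 10.6 and 9.94 CPM in astrocytes. In KIN microglia the 64 summed to 28.9 to 38.9 CPM. The linker histone transcript H1f2-201 was at 36.9, 39.2 and 37.6 CPM in neurons and 0.298, 0.327 and 0.00 CPM in astrocytes, a ratio of 187 with a counting interval from 51.3 to 1550.0.

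Genes of dividing cells and of young neurons were chosen after their values had been seen as well, and are a description. The 16 dividing cell genes summed to 116 to 119 CPM of the library total in neurons against 37.2 to 42.2 CPM in astrocytes. Of the 7 that were tested 5 passed the filter through the neuron libraries alone. Mki67, the Ki-67 protein of cycling nuclei, was at 8.94, 13.3 and 9.93 CPM in neurons and had no count in astrocytes. Top2a, a topoisomerase of mitosis, made up most of the astrocyte sum and was not called, with a log2 of −0.13 ± 0.29 (adjusted p 0.7644). The 14 immature neuron genes had sums of 124, 99.7 and 131 CPM against 25.01, 13.7 and 14.2 CPM. All but Ncam1, Tubb2b and Cd24a of the 11 tested passed through the neuron libraries alone. In astrocyte library 2, Tubb2b had 6 counts and Cd24a 5. Dcx, the doublecortin of migrating neuroblasts, was at 5.21, 4.95 and 2.88 CPM against 0.00, 0.336 and 0.00 CPM (log2 4.84 ± 0.79, adjusted p 1.238e-05). Dlx1, a transcription factor of the interneuron lineage, was at 9.68, 10.3 and 5.12 CPM and had no count in astrocytes. Ncam1 was not called (log2 0.24, adjusted p 0.6232).

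Cytosolic ribosomal protein transcripts that contain no small RNA gene were higher in 60 of 62, with a median log2 of 3.26. This group too was formed after its values had been seen. Of all protein-coding transcripts without a small RNA gene, 34.0% were called higher. The 62 summed to 177, 233 and 259 CPM of the library total in neurons against 19.8, 22.9 and 15.6 CPM in astrocytes. At such low astrocyte sums most of them could pass the filter only with the neuron libraries. Their count is therefore a description, and the sums cover only transcripts that passed. The count was 60 with library totals, 52 with DESeq2 and 62 under the miRNA scaling. Among single protein-coding transcripts, Ttr-201, the thyroxine carrier of the choroid plexus, was at 304, 408 and 484 CPM in neurons and 34.5, 15.0 and 8.39 CPM in astrocytes (log2 4.36 ± 0.30, adjusted p 1.198e-15). Enpp2-202, encoding autotaxin, which the choroid plexus also makes, was at 33.9, 44.6 and 72.6 CPM against 5.36, 3.27 and 2.32 CPM (log2 3.77 ± 0.37, adjusted p 1.47e-11). Ttr was therefore not confined to 1 library of the fraction. The haemoglobin gene Hbb-bs was at 18.6, 19.4 and 6.09 CPM in neurons and 0.657, 0.336 and 0.00 CPM in astrocytes.

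**Figure D4:**
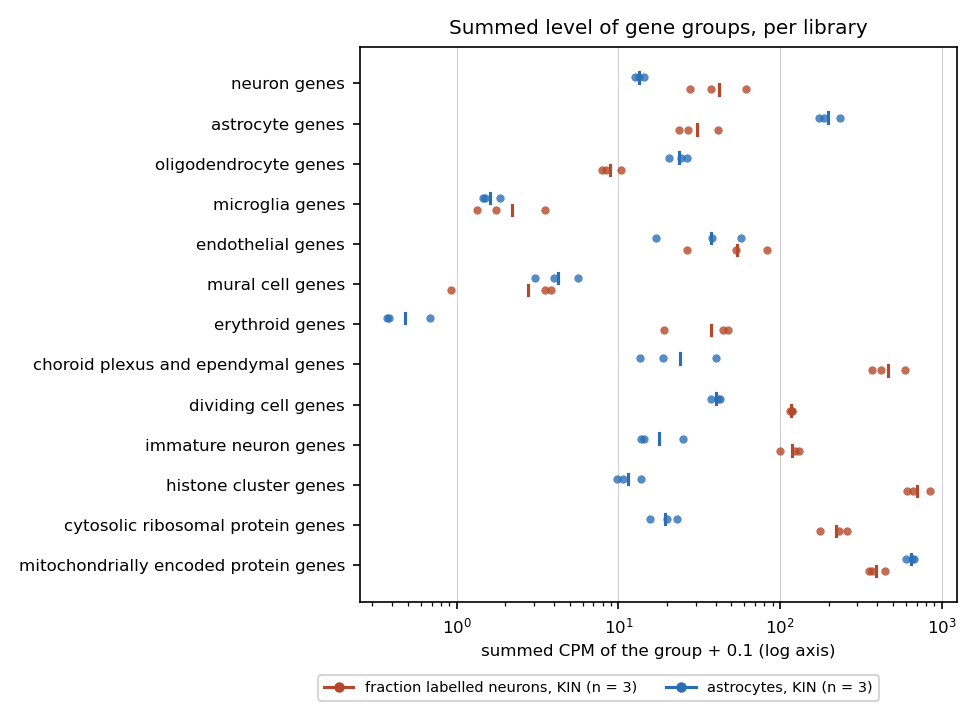
Summed level of gene lists and groups per library (CPM of the library total + 0.1, log axis), with 1 point per library and a tick at the mean of 3 libraries. Astrocyte genes lie higher in the astrocyte fraction, and histone cluster, ribosomal protein, dividing cell, immature neuron, choroid plexus and erythroid genes lie higher in the fraction labelled neurons.

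To ask whether these differences depended on the genotype, the same contrast was made in wild-type (WT) littermates, also 10 months old, whose fractions were prepared alike. Of 5916 features tested in WT 1698 (28.7%) were called, 606 higher and 1092 lower in neurons. Of the 2314 KIN calls 1933 could be tested in WT, of which 1895 (98.0%) had the same direction, 1116 (57.7%) were also called and 0 were called in the opposite direction. Conversely, 78.3% of the WT calls tested in KIN were called there in the same direction. The WT neuron libraries were smaller, at 1211118 to 1956491 counts, and the biological coefficient of variation was 0.425 in WT and 0.201 in KIN.

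The class medians kept their signs in WT for the classes described most. The median log2 of the KIN members was −3.43 in KIN and −2.69 in WT for mature miRNAs, −1.58 and −1.11 for tRNAs, −3.40 and −2.55 for mitochondrial tRNAs, and 0.73 and 0.60 for protein-coding transcripts. The histone cluster transcripts had 6.01 in KIN and 5.82 in WT. The oligodendrocyte miRNA mmu-miR-338-3p had −10.33 ± 0.34 in KIN and −6.74 ± 1.12 in WT, where WT neuron replicate 2 held 17.4 CPM of the library total against 1.65 and 0.00 CPM in the other two.

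The difference between the genotypes was tested as an interaction over the 12 libraries. Of 7084 features 0 were called (0.0%) by edgeR and 0 by DESeq2, the smallest adjusted p was 0.5259, and without adjustment 598 features reached 0.05. For mmu-miR-338-3p the interaction was −3.77 ± 1.09 on the log2 scale (adjusted p 0.566), and for mmu-miR-451a, which had a log2 of 0.48 in KIN and 2.45 in WT, it was −2.15 ± 0.73 (adjusted p 0.566). The count of calls depended on the settings. It was 5 without a filter on low counts, 2 without WT neuron replicate 2 and 1 without WT neuron replicate 3. With the replicate numbers as a block within genotype it was 20, mmu-miR-338-3p among them (adjusted p 0.003465), but the labels do not say that a number marks a single brain.

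**Figure D5:**
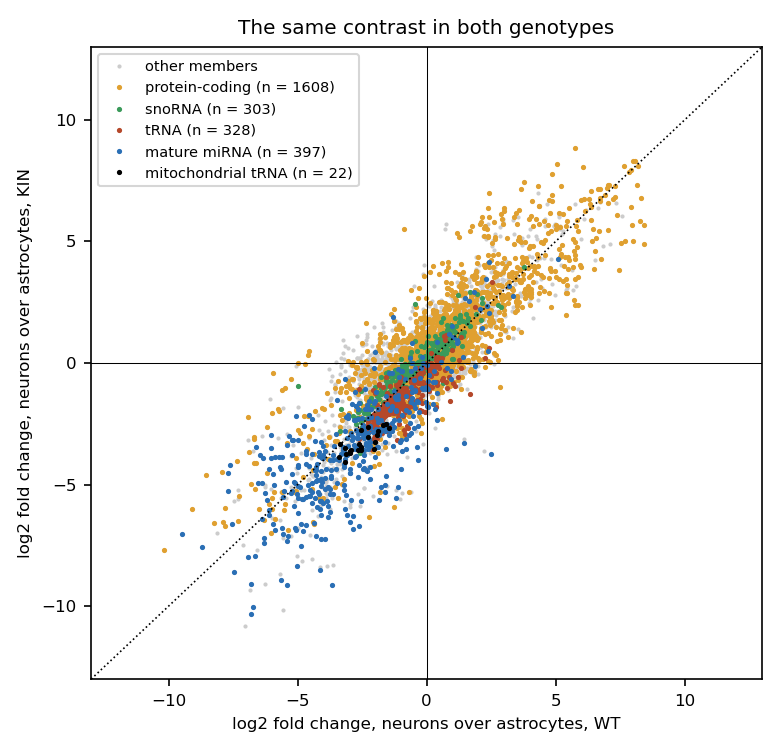
Log2 fold change of neurons over astrocytes for each member in KIN (vertical axis) and WT (horizontal axis), both from edgeR, with 5 RNA classes in colour and the dotted line at equality. Most members lie along the line, and mature miRNAs and mitochondrial tRNAs lie in the lower left.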

How the data were processed

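Small RNA libraries came from 3 fractions of WT and KIN brains, and the 3 Neurons_KIN and 3 Astrocytes_KIN libraries were compared, with group and replicate number taken from the sample titles. Per the labels, RNA was extracted with TRIzol and libraries were made with a ligation-based small RNA kit. According to the study's methods and the submitters' processing notes, the authors trimmed reads with Cutadapt 4.6 to at least 20 bases and placed them with Bowtie2 2.4.4 in successive rounds on miRNAs, tRNAs, piRNAs, noncoding and coding transcripts of mm39. HTSeq 2.0.2 counted them without regard to strand or mapping quality. The deposited values are whole-number counts per feature and not normalized. The kit adds molecular identifiers, and their use on these libraries is not given in the sources used here, so intervals and floors cover counting error only. Of the deposited columns, 36 that hold values of single libraries in another form and 15 with the authors' own comparisons (fold changes and p-values of KIN against WT) were not used.

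For features that held 5 counts or more in 2 or more of the 6 libraries, edgeR 4.0.16 in R 4.3.3 gave quasi-likelihood tests with TMM factors, with fraction as the only term, and p-values were adjusted by the Benjamini-Hochberg method over all features. The labels name the libraries biological replicates, and p-values measure the spread between these libraries. Transcripts summed per gene, tRNA copies summed into isodecoders, the WT contrast and the interaction over 12 libraries were fitted in the same way. The script was tested on simulated data. A fold against a group without counts was computed against 3 counts over the 3 libraries, and 95% counting intervals are exact. Class shares were compared by exact permutation. Alternatives were library totals, TMM factors from mature miRNAs alone, DESeq2 1.42.0, no filter or at least 10 counts in 3 libraries, a fit of all 18 libraries, a replicate block, summed tRNA copies and leaving out each library.

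Members, lists and groups were chosen with earlier results of these data known. Named features are those called, without overlap and with a mean of at least 50 CPM in the higher group, 6 mature miRNAs and 2 of each other type per direction with the largest fold change, 1 per locus, together with members of the cell type lists. Other features named were chosen after their values were seen. Of 4167 Ensembl members 4149 matched the GENCODE (release M39) annotation of GRCm39, from which positions and sequences other than those of miRNAs and piRNAs were taken. For the signal recognition particle RNAs the deposited table and the annotation exchange the names Rn7s1 and Rn7s2, and the table's names are used. The sequences of 19 of 109 piRNA features were not analysed here, and a gene of the cell type lists is not reported here by name.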

Additional observations from a re-analysis of the deposited data

How the results depend on the processing

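With the main settings 2314 features were called. The count was 4286 with TMM factors from mature miRNAs alone and 1493 with at least 10 counts in at least 3 libraries, it lay between 2129 and 2254 when 1 library was left out, and the other alternatives kept it within 1.5 times. The interaction between genotype and fraction gave 0 calls, 5 without a filter on low counts, 20 with a replicate block within genotype and 0 to 2 when 1 library was left out, where the 2 came without WT neuron replicate 2 and 1 came without WT neuron replicate 3.

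The TMM factors from mature miRNAs alone turned the median of tRNAs to 1.51 and that of hairpins to 0.32, and the log2 of Snora47-201 to 0.29, Gm26225-201 to 0.42, Gm25443-201 to 1.79, Scarna17-201 to 1.90, Rny1-201 to 1.18, Rny3-201 to 1.93, mmu-piR-67402 to 0.78, ENSMUST00020181895 to 0.20, ENSMUST00020182725 to 0.53, mmu-miR-9-5p to 1.42, mmu-miR-9-3p to 2.69, mmu-miR-125b-5p to 0.38, mmu-miR-223-3p to 2.13, mmu-miR-204-5p to 1.33, mmu-miR-19b-3p to 2.88, mt-Co1-201 to 0.51, mt-Rnr1-201 to 2.98, mt-Rnr2-201 to 2.92, Snord64-201 to 1.19, Top2a to 3.18 and Mbp to 1.20. These factors move all members by a median of 3.10. Without a filter the median of misc_RNA was −0.24, over more features. A few uncalled values near 0 changed sign elsewhere. With library totals mmu-miR-19b-3p was 0.0383, mt-Rnr1-201 0.0582 and Top2a 0.31, with at least 10 counts in 3 libraries mmu-miR-19b-3p was 0.0309, mt-Rnr1-201 0.083, mt-Rnr2-201 0.0197 and Top2a 0.25, and Top2a lay between −0.3214 and 0.0989 when 1 library was left out. Of the named features, 94 of 94 kept direction and call with DESeq2, with no filter and with the replicate block.

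The replicate block gave 2155 calls. According to the study its mice were of both sexes, and sex was not a term of any fit. Deviations of same-numbered neuron and astrocyte libraries from their group means correlated at −0.01, 0.35 and 0.11, and neuron library 3 correlated best with astrocyte library 1 (0.30), so the numbers were not taken to pair the libraries, although the counts of Xist (5, 56 and 88 in neurons, 5, 47 and 83 in astrocytes) ran in parallel. At 3 counts the floor was 0.806 to 1.28 CPM per library, and genes below it cannot be compared.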

Other observations

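The interaction fit with a replicate block within genotype called 20 features, 11 of them mature miRNAs and 4 miRNA hairpins, where the same fit without the block called 0. The interaction (KIN minus WT, edgeR) was −3.24 on the log2 scale for mmu-miR-338-3p (adjusted p 0.003465), −2.77 for mmu-miR-219a-5p (adjusted p 0.00426), −3.69 for mmu-miR-190a-5p (adjusted p 0.01842) and 4.73 for mmu-miR-200c-3p (adjusted p 0.04447). In KIN, mmu-miR-200c-3p had 1, 2 and 12 counts in the neuron libraries and 0, 0 and 1 in the astrocyte libraries, so that neuron replicate 3 held most of them.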
